A study of Mus musculus with 2 samples.

Results

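Granule-high neutrophils are blood neutrophils whose messenger RNA still holds a large share of transcripts for proteins of the secondary, or specific, granules. They were chosen from single-cell counts of unique molecular identifiers (UMIs, tags that count molecules once). A cell was a member when it passed 4 gates among barcodes with 200 genes or more and no more than 20% of UMIs from mitochondrial genes. S100a8 and S100a9 together made up at least 3% of its UMIs, and Csf3r, Cxcr2 and Ly6g together gave at least 1 UMI. The monocyte genes Ccr2, F13a1, Vcan and Fn1 gave at most 5 UMIs, and Ltf, Camp and Ngp together, here called the granule share, made up at least 3% of UMIs. By this rule 1039 cells were members, of 26438 cells that passed the filter and of 19566 neutrophils defined by the first 3 gates.

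The blood came from mice labelled male, aged 24 months (old) and 2 months (young), with 1 library per age. Strain, genotype and the number of animals per library are not given in the sources used here. Red cells had been lysed and live CD45+ CD11b+ Ly6G+ cells sorted before capture on the BD Rhapsody microwell system. The stated aim was to study senescent neutrophils in ageing. With 1 library per age there is no test between ages and no p-value, and values describe these 2 libraries. The old library held 14334 barcodes and 128826996 UMIs, and the young library 13599 barcodes and 69599479 UMIs. The libraries shared 53 barcodes, none with identical counts, and 2 of the 53 were old members.

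Sex-linked genes of both sexes were found in both libraries, although both are labelled male. Xist, which coats and silences an X chromosome in female cells, had a UMI in 765 of 992 old members and in 30 of 47 young members. Y-linked genes had a UMI in 112 old and 8 young members, and 87 old and 6 young members held both. The Y-linked counts are pooled over genes that did not all give UMIs. Eif2s3y gave none in members or granule-low cells (defined below) of either library. Uty gave none in old members and Kdm5d none in young members. Whether a library holds animals of both sexes was not tested.

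Neutrophils develop in the bone marrow and make their granule proteins in waves. Azurophil proteins such as elastase come at the promyelocyte stage, specific granule proteins such as lactoferrin at the myelocyte and metamyelocyte stages, and gelatinase granule proteins in band cells. Mature blood neutrophils carry these proteins but have mostly stopped making their messenger RNA, so blood cells rich in specific granule transcripts are usually read as recently released, immature cells.

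Granule-high cells made up 9.80% of old neutrophils (992 of 10127, exact 95% interval 9.22 to 10.4) and 0.498% of young neutrophils (47 of 9439, 0.366 to 0.662). Of filtered cells they were 7.34% in the old and 0.364% in the young library. These intervals, and all others in parentheses, cover counting error only: Clopper-Pearson for shares and exact Poisson for levels in CPM (a gene's UMIs scaled to the group's total UMIs). The young members are few, and each statement about them rests on 47 cells and 566139 UMIs, against 992 cells and 17879946 UMIs in the old library. The granule share was continuous: 234 old and 7 young neutrophils lay from 2.5% to under 3.5%. The members nearest the limit had 3.0027% in the old and 3.08% in the young library, and the nearest cells outside had 2.9955% in the old and 2.93% in the young library.

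**Figure D1:**
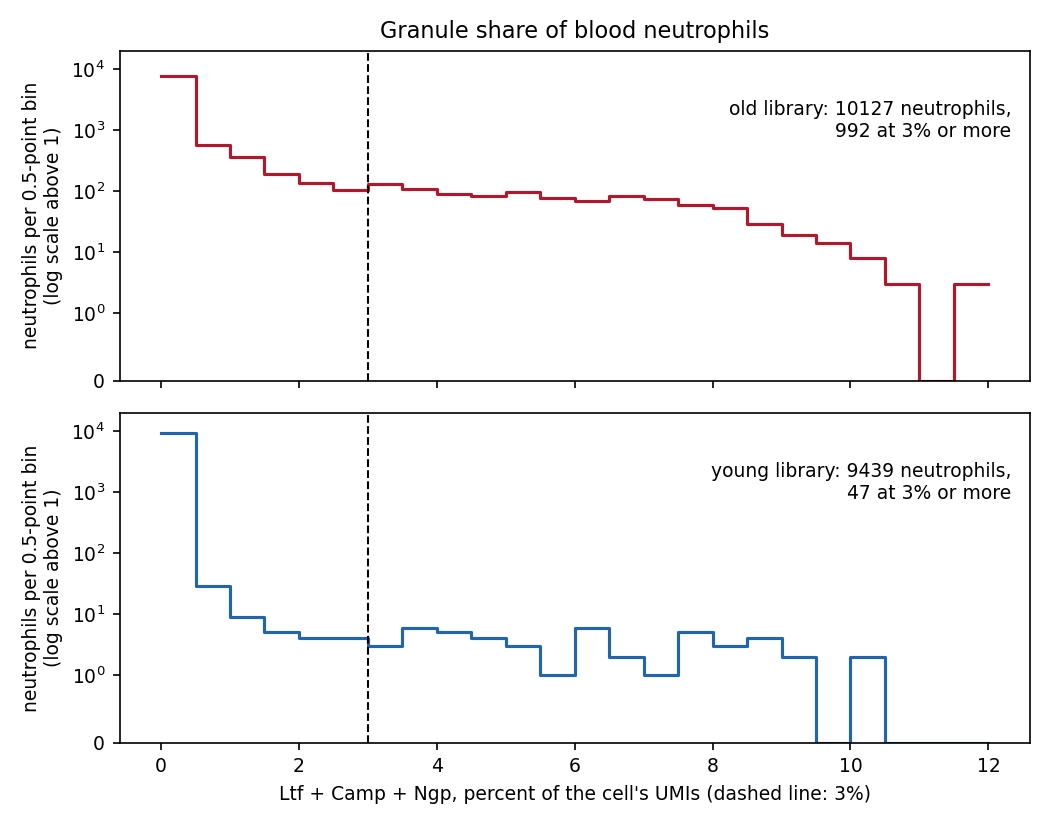
Granule share (Ltf, Camp and Ngp as percent of a cell's UMIs, horizontal axis) of neutrophils in the old (upper panel) and young (lower panel) library, as cells per bin on a log scale. The old library has 992 and the young library 47 cells right of the dashed line at 3%, and neither shows a gap at that line.

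Between the extremes, neutrophils of 1 to under 3% numbered 785 in the old and 22 in the young library. Those of 0.1 to under 1% numbered 3061 in the old and 120 in the young library, and those below 0.1% numbered 5289 in the old and 9250 in the young library. Members were also the deepest neutrophils: their median was 16878 UMIs in the old and 11963 in the young library, against 6669 in old and 4240 in young neutrophils under 1%, called granule-low here. Median genes per cell were 2678.5 in old and 2399 in young members, against 1757 in old and 1569 in young granule-low cells. When each cell was thinned to 1000 UMIs and the rule applied again, the old share was 8.27%. The part of depth in the other results was not tested, except where thinned values are given.

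The values that chose the members were as follows and are a description. Ltf, which encodes the iron-binding protein lactoferrin, stood at 10072 CPM in old and 10764 CPM in young members. Camp, the precursor of the cathelicidin antimicrobial peptide, stood at 18841 CPM in old and 21253 CPM in young members, and Ngp, a cystatin-related granule protein, at 29231 CPM in old and 31559 CPM in young members. Together they made 5.81% of UMIs in old and 6.36% in young members. In granule-low cells they made 0.171% in the old and 0.0117% in the young library. The median granule share per cell was 5.48% in old and 6.02% in young members. In each library the 3 genes varied together over members, with Spearman's rho of 0.503 to 0.608 over 992 old and 0.622 to 0.761 over 47 young cells. These are shares of the same cell's UMIs, and cells of a library are not replicates.

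B cells, which should lack granule transcripts, were used to read the background from free RNA. They were chosen to hold no UMI of Csf3r, Cxcr2 or Ly6g. Doublets with neutrophils were thus mostly left out, and the background may read low. In 78 old B cells the 3 granule genes made 0.0478% of UMIs, and in 142 young B cells 0.00094%. Both levels lay below those of members and of granule-low cells.

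The 3 genes lie on chromosome 9. In GENCODE coordinates of GRCm38, Camp spans 109847379 to 109849617 on the minus strand, Ngp 110419747 to 110423012 on the plus strand and Ltf 111019271 to 111042767 on the plus strand. Their promoters, 250 bases before to 50 after the start in RefSeq's GRCm38.p6 table, are shown because this shared expression defines the cells. Capitals mark TTGCNNAA, a core of the site bound by C/EBP proteins, searched on both strands.
Camp, chr9:109849407-109849706, minus strand: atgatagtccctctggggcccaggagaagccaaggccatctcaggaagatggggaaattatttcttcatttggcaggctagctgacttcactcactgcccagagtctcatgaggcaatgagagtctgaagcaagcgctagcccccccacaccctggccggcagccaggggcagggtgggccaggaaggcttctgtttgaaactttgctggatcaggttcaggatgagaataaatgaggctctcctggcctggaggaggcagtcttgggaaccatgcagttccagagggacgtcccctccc
Ngp, chr9:110419558-110419857, plus strand: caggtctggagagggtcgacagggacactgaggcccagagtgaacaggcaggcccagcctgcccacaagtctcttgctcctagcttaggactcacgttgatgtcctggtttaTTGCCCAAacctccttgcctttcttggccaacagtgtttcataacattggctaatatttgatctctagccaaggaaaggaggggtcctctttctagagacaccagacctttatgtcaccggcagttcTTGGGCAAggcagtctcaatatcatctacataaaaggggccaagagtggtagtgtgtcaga
Ltf, chr9:111019042-111019341, plus strand: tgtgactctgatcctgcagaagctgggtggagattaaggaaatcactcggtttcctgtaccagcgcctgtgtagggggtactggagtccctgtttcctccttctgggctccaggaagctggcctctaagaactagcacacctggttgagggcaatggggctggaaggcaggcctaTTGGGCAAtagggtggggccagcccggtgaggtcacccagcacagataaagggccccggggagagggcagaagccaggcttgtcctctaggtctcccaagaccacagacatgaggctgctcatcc

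The Ngp promoter held the motif 2 times, the first at -138 from the start, and the Ltf promoter 1 time, at -75, and the Camp window held none. Of 16 genes searched, 12 had an entry and 5 of those held the motif, which 10.8% of 32851 promoters of this length hold. GAGGAA, a core of the PU.1 site searched likewise, was in 8 of the 12 and in 28.3% of all promoters. A match is a description of letters, not a site.

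The label was given with 3 marker genes that the rule did not use. Cebpe encodes the transcription factor required for specific granule formation. It stood at 193 CPM (187 to 200) in old and 212 CPM (176 to 253) in young members, against 13.4 CPM in old and 14.9 CPM in young granule-low cells. Its level was 14.4-fold higher in members than in granule-low cells of the old library and 14.2-fold higher in the young one. Orm1, the acute phase protein alpha-1-acid glycoprotein, stood at 90.0 CPM in old and 51.2 CPM in young members, against 3.67 CPM in old and 0.468 CPM in young granule-low cells. Serpinb1a, which blocks elastase-like proteases of neutrophils, stood at 666 CPM in old and 489 CPM in young members, against 66.7 CPM in old and 9.73 CPM in young granule-low cells. All 3 markers were higher in members of both libraries. They were chosen with earlier results of these data known, so their direction is not independent evidence for the label.

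Detection followed the same order at equal depth. After thinning to 5000 UMIs, Cebpe had a UMI in 47.1% of 975 old and 52.2% of 46 young members, and in 5.69% of 5795 old and 5.61% of 2602 young granule-low cells. The thinning left out 17 old and 1 young members, and 2555 old and 6768 young granule-low cells. Unthinned, the shares in members were 71.5% in the old and 76.6% in the young library. No Cebpe UMI was seen in 56 old or 90 young B cells at that depth, which allows shares of up to 5.36% in old and 3.33% in young B cells. Orm1 marked a smaller fraction, 20.6% of old and 19.6% of young members, against 1.83% of old and 0.231% of young granule-low cells.

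In both libraries members were higher than granule-low cells in specific granule genes and lower in genes of mature neutrophils. Because the rule sorted these same cells by granule share, the comparison is descriptive. Among genes at 50 CPM or more in either group, 141 of 2456 in the old library (5.74%) were higher in members past 2-fold and 592 (24.1%) lower. In the young library 294 of 3109 (9.46%) were higher and 1113 (35.8%) lower. The median gene lay at -0.49 log2 in the old and -0.64 in the young library, beside a larger share of UMIs from S100a8 and S100a9 in members. That share was 36.8% in old and 31.3% in young members, against 24.7% in old and 11.2% in young granule-low cells. Relative to the median gene the split was 302 higher (12.3%) and 278 lower (11.3%) in the old library, and 545 (17.5%) higher and 529 (17%) lower in the young one. With a total that leaves out S100a8, S100a9, Ltf, Camp and Ngp it was 378 higher and 367 lower in the old library and 691 higher and 671 lower in the young one.

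Neutrophils of 1 to under 3% were set against both groups. In the old library, neutrophils of 1 to under 3% over granule-low cells had 59 of 2385 genes (2.47%) higher past 2-fold and 220 (9.22%) lower, and 115 (4.82%) and 107 (4.49%) relative to the median gene. Members over the neutrophils of 1 to under 3% had 31 of 2096 (1.48%) higher and 53 (2.53%) lower, and 52 (2.48%) and 25 (1.19%) relative to the median gene. Cebpe stood at 48.0 CPM in these old cells and 63.2 CPM in the 22 young ones, between members and granule-low cells. Serpinb1a stood at 340 CPM in these old cells and 173 CPM in the young ones.

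Other specific granule genes were among those on the high side. Of 14 listed, 13 were measured at 10 CPM or more, and 7 were higher past 2-fold in old members and 9 in young members, with none lower, and relative to the median gene 9 old and 11 young were higher. Their median log2 ratio was 1.72 in the old and 3.54 in the young library. Among all genes, 5.74% were higher in the old and 9.46% in the young library, and 12.3% and 17.5% relative to the median gene. Chil3, a chitinase-like lectin, stood at 3373 CPM in old and 3967 CPM in young members, against 180 CPM in old and 17.4 CPM in young granule-low cells. Cybb, the membrane subunit of the NADPH oxidase, stood at 1628 CPM in old and 2077 CPM in young members, against 155 CPM in old and 57.9 CPM in young granule-low cells. Lcn2, which binds bacterial iron carriers, stood at 17601 CPM in old and 14892 CPM in young members, against 5328 CPM in old and 1278 CPM in young granule-low cells. Hp, which encodes haptoglobin, was an exception, at 1999 CPM in old and 1577 CPM in young members, against 2101 CPM in old and 1790.0 CPM in young granule-low cells.

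Gelatinase granule genes, made after the specific ones, were on both sides. Of 10 listed, 8 were measured in the old library, with 1 higher and 3 lower past 2-fold, and 7 in the young library, with 2 higher and 2 lower. On the scale relative to the median gene, 2 were higher and 2 lower in the old library and 3 higher and 2 lower in the young one. Among all genes, 5.74% were higher and 24.1% lower in the old library, and 9.46% and 35.8% in the young one. Relative to the median gene these shares were 12.3% and 11.3% in the old library, and 17.5% and 17% in the young one. The summed level of the 10 listed genes was 11284 CPM in old and 14124 CPM in young members, against 27312 CPM in old and 9685 CPM in young granule-low cells. In members of 3 to 5% granule share, most of the sum was Retnlg. It made 13878 of 16845 CPM in the old and 17546 of 21060 CPM in the young library.

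B cells of the old library also held some of these transcripts. After thinning to 5000 UMIs, Chil3 had a UMI in 33.9% of old B cells and 1.11% of young B cells, against 99.0% of old and 100% of young members. The Chil3 level was 99.3 CPM in old and 3.53 CPM in young B cells. Of old granule-low cells 46.3% had a Chil3 UMI, a share closer to that of old B cells than the members' share was.

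Genes outside the granule lists also had high ratios in both libraries. Erg, an ETS transcription factor, stood at 61.2 CPM in old and 90.1 CPM in young members, against 1.98 CPM in old and 2.25 CPM in young granule-low cells. Of 8 stem and progenitor genes listed, Erg included, 2 were measured in each library, with 1 higher and 1 lower in the old and 1 higher and 1 within 2-fold in the young one, and Cd34, Sox4 and Gata2 had no UMI in young members. Lta4h, the enzyme that makes leukotriene B4, stood at 321 CPM in old and 279 CPM in young members, against 27.4 CPM in old and 20.7 CPM in young granule-low cells. For Erg and Lta4h the intervals of members and granule-low cells did not overlap in either library. Both genes were ranked by high ratios in both libraries, so this gap follows from the ranking and adds no evidence. Lbp, which carries lipopolysaccharide, was 17.1-fold higher in old members (15.0 to 19.5) and 28.1-fold in young members (19.6 to 39.6). Aoah, which removes acyl chains from lipopolysaccharide, was 10.7-fold higher in old and 11.6-fold higher in young members. Cpa6, Inhba, Olfml2b and Zmpste24 completed the 12 highest by the smaller of the 2 libraries' ratios. Their ratios ran from 15.0 to 41.9-fold in the old and 22.5 to 53.1-fold in the young library.

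Genes of mature, activated neutrophils lay on the low side. Of 12 listed, 11 were measured in the old library and 12 in the young one, and every measured gene was lower past 2-fold in members; Ccrl2 and Ptgs2 had no UMI in young members. The old median of the listed genes was -2.43 log2. Among all genes, 24.1% were lower in the old and 35.8% in the young library. Relative to the median gene, 10 listed genes were lower in each library, beside 11.3% of all genes in the old and 17% in the young one. Il1b, the inflammatory cytokine, stood at 203 CPM in old and 88.3 CPM in young members, against 2169 CPM in old and 2823 CPM in young granule-low cells. Ccl6, a chemokine, stood at 174 CPM in old and 136 CPM in young members, against 1691 CPM in old and 2871 CPM in young granule-low cells. For both cytokines the young members had the lowest level of the 4 groups. Cd101, a surface antigen of mature mouse neutrophils, stood at 14.4 CPM in old and 23.0 CPM in young members, against 173 CPM in old and 492 CPM in young granule-low cells. Steap4, a metalloreductase, stood at 20.6 CPM in old members and gave no UMI in young members, against 239 CPM in old and 178 CPM in young granule-low cells, so it was at least 33.6-fold lower in young members. Fgl2, Jaml and St8sia4, also among the 12 lowest, were 9.44 to 10.6-fold lower in old members and 29.0 to 49.0-fold lower in young members.

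**Figure D2:**
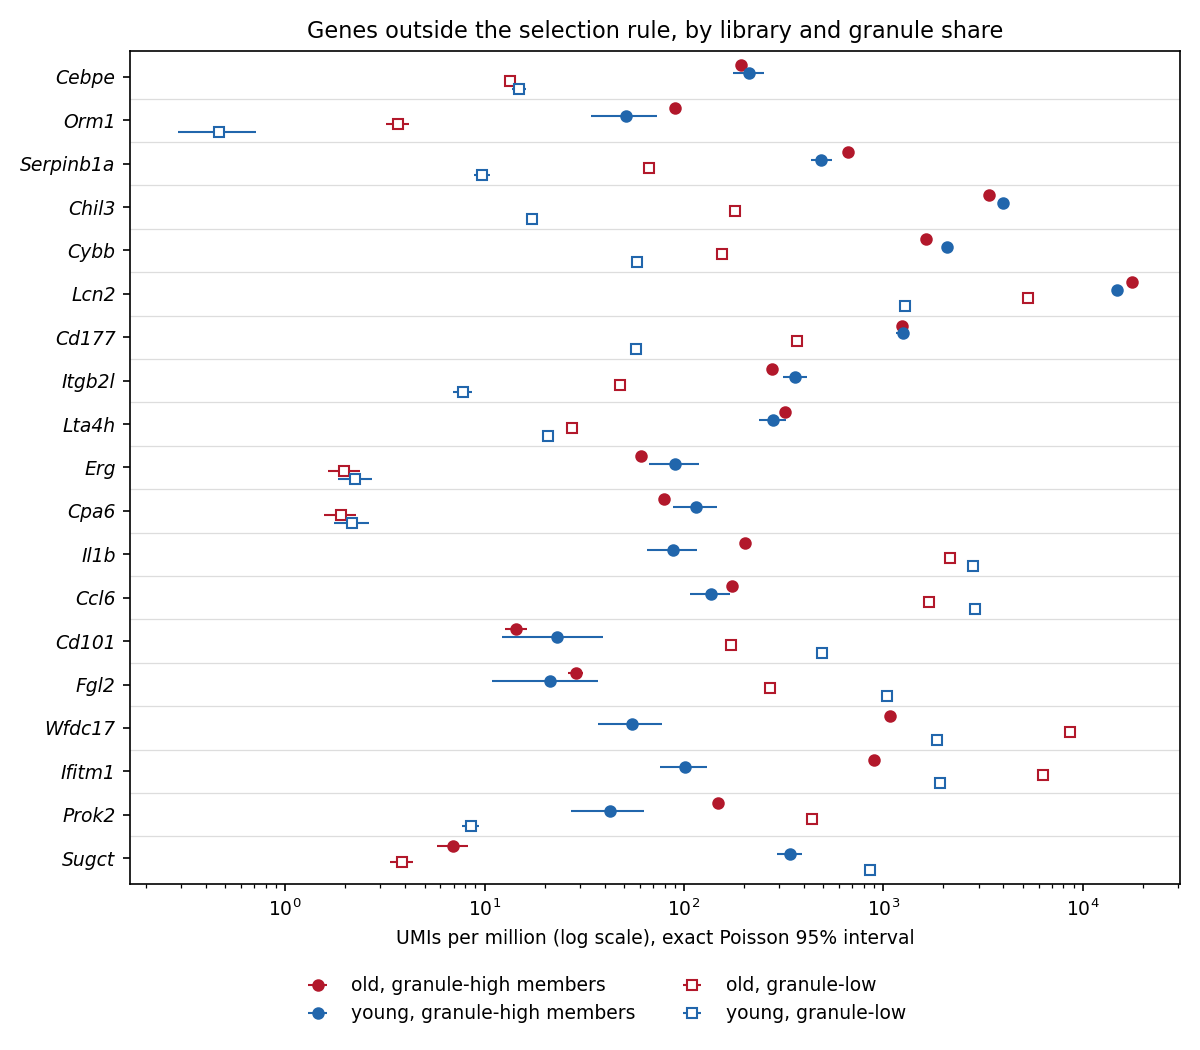
Levels in CPM (log scale) of 19 genes that the rule did not use, in members (filled circles) and granule-low neutrophils (open squares) of the old (red) and young (blue) library, with exact Poisson 95% intervals. Cebpe to Cpa6 lie right in members of both libraries, Il1b to Ifitm1 lie left, and Prok2 and Sugct lie in different orders in the 2 libraries.

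Receptors and stimulus genes were also low in members. Csf3r, the receptor for the granulocyte growth factor, stood at 380 CPM in old and 436 CPM in young members, against 2114 CPM in old and 4538 CPM in young granule-low cells. Cxcr2, the receptor that draws neutrophils out of the marrow, stood at 446 CPM in old and 449 CPM in young members, against 1176 CPM in old and 1666 CPM in young granule-low cells. The rule used both genes, with a threshold of 1 UMI. Of 12 trafficking and adhesion genes, none was higher past 2-fold, and 6 of 11 measured in the old and 9 of 12 in the young library were lower. Of all genes, 24.1% were lower in the old and 35.8% in the young library. Interferon-stimulated genes gave 10 lower of 13 measured in each library, of 16 listed. Immediate early genes gave 10 of 13 in the old and 14 of 14 in the young library, of 15 listed, again with none higher. Relative to the median gene, the lower counts were 9 interferon-stimulated genes in each library, and 7 old and 11 young immediate early genes. On that scale 10 mature neutrophil genes were lower in each library. Of the trafficking genes, 4 old and 6 young were lower there, and 2 were higher in young members. The share of all genes lower on that scale was 11.3% in the old and 17% in the young library.

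Transcription factors of granulopoiesis were on both sides. Of 12 listed, 2 of 9 measured were higher and 2 lower past 2-fold in the old library, and 3 of 11 were higher and 4 lower in the young one. With the median gene set to 0, 3 were higher and 1 lower in the old library and 4 higher and 1 lower in the young one. Cebpe and Cebpb, from the same family, lay on opposite sides. Cebpb, a factor of emergency granulopoiesis, stood at 327 CPM in old and 145 CPM in young members, against 1312 CPM in old and 725 CPM in young granule-low cells. Klf5 stood at 58.8 CPM in old and 120 CPM in young members, against 30.2 CPM in old and 23.0 CPM in young granule-low cells. In the NADPH oxidase, 2 of 6 genes were higher past 2-fold in both libraries, Cybb and the cytosolic subunit Ncf1, which stood at 663 CPM in old and 947 CPM in young members, against 277 CPM in old and 296 CPM in young granule-low cells. With the median gene set to 0, 4 of the 6 were higher in each library. Over all genes, 5.74% were higher and 24.1% lower in the old library, and 9.46% and 35.8% in the young one. Relative to the median gene these shares were 12.3% and 11.3% in the old library, and 17.5% and 17% in the young one.

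Of 14 specific granule genes outside the rule, 9 were assigned the same band of highest level in both libraries. The same held for 8 of 10 gelatinase granule genes. The 9 include Ptx3, which had no UMI in any band of either library, so its band is not a peak. Among genes whose band differed, Hp was highest at 8% or more in the old and under 0.1% in the young library. Chil1 was highest at 0.1 to 1% in the old and 3 to 5% in the young, and Lrg1 at 0.1 to 1% in the old and under 0.1% in the young. Genes of other roles, such as Il1b and Ccl6, also kept their band, and the share over all genes was not taken. The counts are thus not read as a trait of granule genes. The 6 bands were: under 0.1%, 0.1 to 1%, 1 to 3%, and within members 3 to 5%, 5 to 8% and 8% or more. The member bands held 407, 456 and 129 old cells and 18, 18 and 11 young cells. Median UMIs per cell also went up along the bands, from 6136 in the lowest to 19824 in the highest old band and from 4227 to 13050 in the young library.

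Cebpe was highest in the top band of both libraries, at 385 CPM in the old and 241 CPM in the young library. Within old members it stood at 96.2, 214 and 385 CPM from the lowest to the highest band, and within young members at 198, 206 and 241 CPM. The young intervals overlap between bands. Chil3 stood at 1773, 3787 and 6293 CPM in old and 1738, 4005 and 7185 CPM in young members. Fcnb, a ficolin, stood at 2.62, 44.0 and 116 CPM in old members, and its 3 young UMIs all came from the top band.

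Metalloprotease genes peaked elsewhere. Mmp8, the neutrophil collagenase, was highest at 1 to 3% in both libraries, with 3096 CPM in the old and 5418 CPM in the young library. It then stood at 2844, 1703 and 805 CPM over the old member bands and at 5290, 5156 and 2575 CPM over the young ones. Mmp9, gelatinase B, and Mmp25, a membrane metalloprotease, also had their highest value at 1 to 3% in both. Mmp9 reached 2410 CPM in the old and 2884 CPM in the young library there. At 3 to 5% Mmp9 stood at 2386 CPM (2350 to 2423) in the old and 2771 CPM (2549 to 3007) in the young library. These intervals held the values at 1 to 3%, as did the young Mmp8 intervals at 3 to 5% and 5 to 8%. Those peaks were thus not told apart from the lower member bands.

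Retnlg, a resistin-like protein, and Prok2, a small secreted chemotactic peptide also called Bv8, peaked at a lower granule share. Retnlg was highest at 0.1 to 1%, with 28550 CPM in the old and 31775 CPM in the young library, and stood in the top band at 3105 CPM in the old and 4249 CPM in the young library. Il1b, Ccl6, Csf3r and Cxcr2 were highest below 0.1% in both libraries. Il1b stood there at 2763 CPM in the old and 2868 CPM in the young library. For these genes the order of highest values was Cebpe and Chil3, then Mmp8 and Mmp9, then Retnlg and Prok2, then Il1b, from high to low granule share. Bands share the library, so this order was seen in 2 libraries and not tested. Intervals of Mmp9 and of young Cebpe and Mmp8 overlapped between neighbouring bands.

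**Figure D3:**
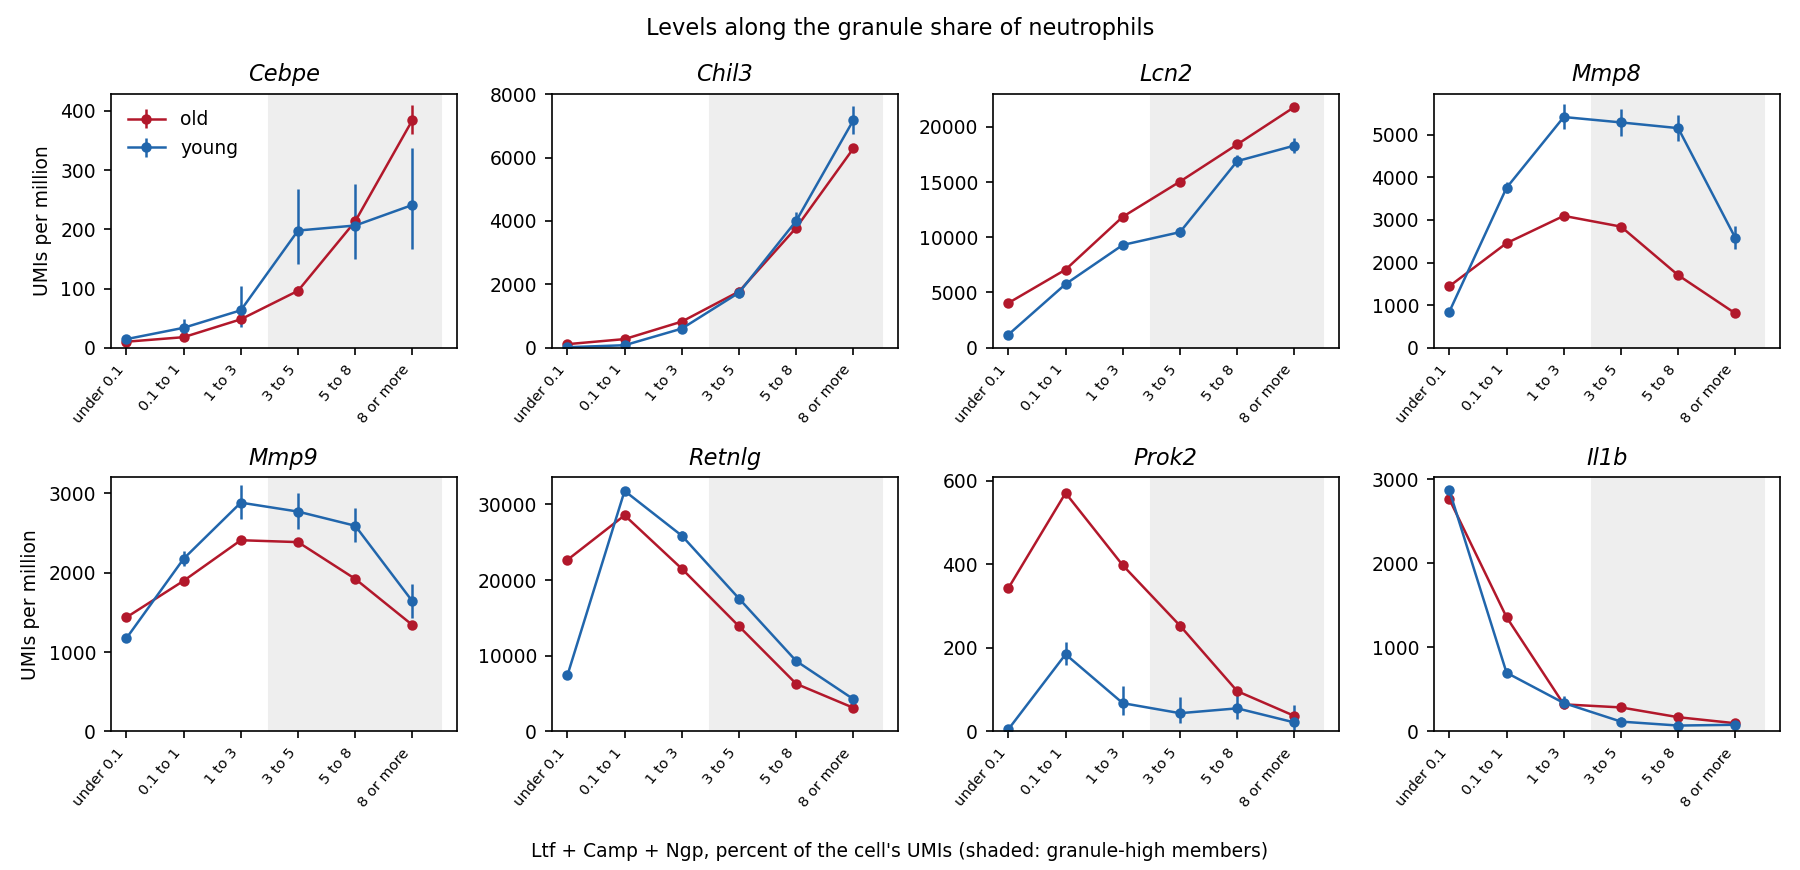
Level in CPM of 8 genes over 6 bands of granule share in the old (red) and young (blue) library, with exact Poisson 95% intervals, the member bands shaded. Cebpe, Chil3 and Lcn2 are highest in the top band, Mmp8 and Mmp9 at 1 to 3%, Retnlg and Prok2 at 0.1 to 1% and Il1b below 0.1%, in both libraries. Intervals of Mmp9 and of young Cebpe and Mmp8 overlap between neighbouring bands.

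A few old members also held genes of earlier stages. Summed over 13 cell cycle genes such as Top2a and Mki67, old members gave 2203 UMIs, and the top 20 cells held 78.1% of them. At 10 or more of these UMIs there were 31 old members, 3.12% of 992 (2.13 to 4.41), and no young member. For 47 cells a count of 0 allows a share of up to 6.38%, so a fraction like the old one is not excluded in the young library. The 31 cells lay high on the granule gradient: 30 had a granule share of 5% or more and 18 of 8% or more. Their median granule share was 8.30%, against 5.40% in the other 961 old members. Their median depth was 23965 UMIs, against 16769 in those others, and the part of depth in this difference was not tested.

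Azurophil genes reached high counts in fewer cells. Elane, neutrophil elastase, had a UMI in 1.61% of old members, and 1 cell held 71.4% of its UMIs. Prtn3, proteinase 3, stood at 22.7 CPM in old members and gave no UMI in young members. The cell with most Prtn3 UMIs held 43.1% of them, and without it the old level was 12.9 CPM. Of 8 azurophil genes listed, 6 had no UMI in young members. At least 1 UMI of azurophil genes and Ms4a3, a gene of granulocyte progenitors, was found in 266 old members, against 218 with a cell cycle UMI. At 10 or more there were 6 old members, 5 of which also had 10 or more cell cycle UMIs. Of 47 young members, 1 had an azurophil or Ms4a3 UMI and 4 a cell cycle UMI. The 8 listed azurophil genes summed to 79.8 CPM in old and 7.07 CPM in young members. In granule-low cells they summed to 56.2 CPM in the old and 19.2 CPM in the young library, and in B cells to 211 and 233 CPM.

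**Figure D4:**
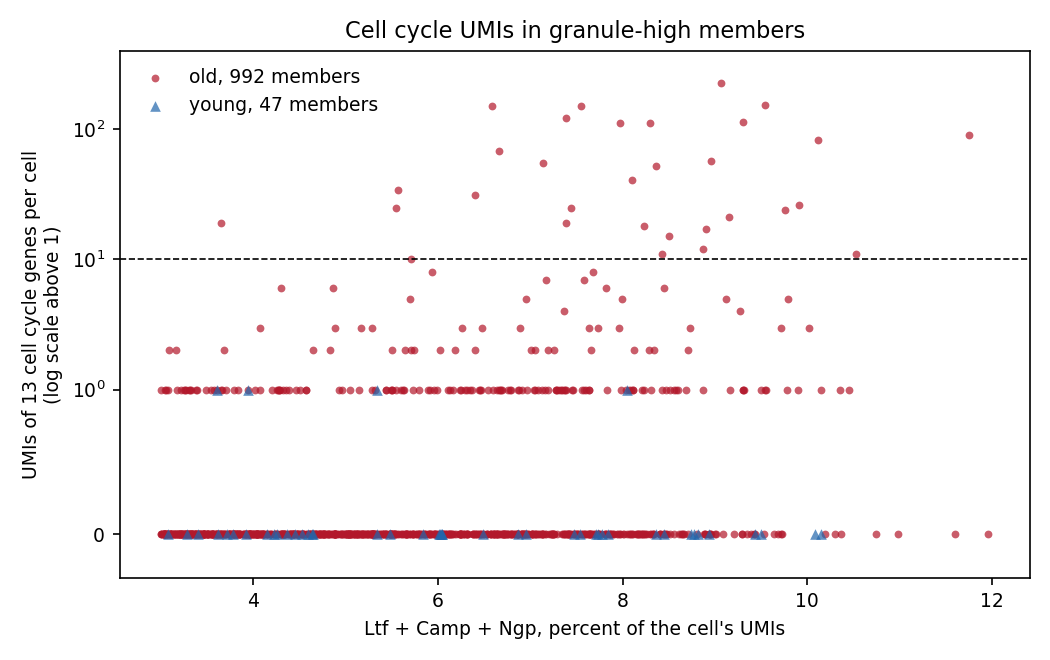
UMIs of 13 cell cycle genes per member (log scale above 1) against granule share, for 992 old (circles) and 47 young (triangles) members. The dashed line is at 10 UMIs: 31 old members lie on or above it, most at 5% granule share or more, and no young member does.

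Olfm4, olfactomedin 4, which marks a subset of mouse neutrophils, split the members. It had a UMI in 91 old and 3 young members, and 36 old and 3 young members held 10 or more. Those 36 held 97.7% of the old members' Olfm4 UMIs, with up to 164 in a cell. The median granule share was 5.60% in these 36 and 5.47% in the other old members.

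Between ages, Ltf, Camp and Ngp, which the rule used, lay within 1.5-fold in members, and genes outside the rule differed in both directions. Among genes at 50 CPM or more, 147 of 2365 (6.22%) were higher past 1.5-fold in old members and 780 (33%) lower. The median gene lay at -0.36 log2, and relative to it 361 (15.3%) were higher and 263 (11.1%) lower. After thinning to 1000 UMIs 352 were higher, and with a total that leaves out S100a8, S100a9, Ltf, Camp and Ngp 297 were. Of 13 specific granule genes measured, 2 were higher, 2 lower and 9 within 1.5-fold, beside 1438 of all 2365 genes within it, with a median of -0.01 log2. Relative to the median gene, 4 were higher, 2 lower and 7 within. Cd177, a surface antigen of neutrophils, stood at 1242 CPM in old and 1254 CPM in young members. Ly6g, the antigen used for the sort, stood at 1087 CPM in old and 1042 CPM in young members. Itgb2l and Pglyrp1 also lay within 1.5-fold.

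The same genes differed more between ages outside the members. In granule-low cells 180 of 2924 genes (6.16%) were higher past 1.5-fold in the old library and 1347 (46.1%) lower, and 479 (16.4%) and 249 (8.52%) relative to the median gene. Of 12 specific granule genes measured there, 10 were higher in the old library and none lower. In granule-low cells Cd177 stood at 370 CPM in the old and 57.8 CPM in the young library. Chil3 stood at 180 CPM in the old and 17.4 CPM in the young library there, and Ly6g at 939 CPM in the old and 95.2 CPM in the young library. Granule-low cells of the 2 ages were not alike in granule share. Of them, 3061 of 8350 old and 120 of 9370 young cells lay at 0.1 to under 1%. The part of this make-up, and of free RNA, in these differences was not tested. Of 9 genes listed because they were higher in old than in young neutrophils as a whole, 4 were higher past 1.5-fold in old members: Prok2, Lipg, Ggt1 and Ifitm6. The other 5, within 1.5-fold, were Serpinb1a, Acvrl1, Chil3, Ly6g and Cd177. On the scale relative to the median gene, 6 of the 9 were higher. The list was chosen on these same libraries, so its direction is not independent evidence.

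The exceptions among specific granule genes were Mmp8 and Olfm4, lower in old members, and Lrg1 and Orm1, higher. Mmp8 stood at 2012 CPM in old and 4562 CPM in young members, 2.27-fold lower (2.18 to 2.36), and was lower in the old library in each member band. Lrg1, a leucine-rich glycoprotein, stood at 1281 CPM in old and 555 CPM in young members, 2.31-fold higher in old members (2.07 to 2.59). Olfm4 stood at 174 CPM in old and 374 CPM in young members. The young value rests on 3 cells, and without the cell with most UMIs it was 225 CPM.

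Wfdc17 and Ifitm1 led the genes that were higher in old members. Wfdc17, a whey acidic protein, stood at 1082 CPM in old and 54.8 CPM in young members, 19.8-fold higher (13.9 to 29.1). Ifitm1, an interferon-induced membrane protein, stood at 892 CPM in old and 101 CPM in young members, and Ifitm2 at 1676 CPM in old and 535 CPM in young members. Of the 12 listed S100 and antimicrobial genes outside the rule, 7 were higher past 1.5-fold in old members and none lower. Their median was 1.02 log2, and relative to the median gene 8 were higher. Of all genes, 6.22% were higher, and 15.3% relative to the median gene. In granule-low cells the ages also differed, with Wfdc17 at 8644 CPM in the old and 1855 CPM in the young library. Old B cells held 385 CPM of Wfdc17 and young B cells 43.5 CPM. The part of free RNA in the members' Wfdc17 level was not tested.

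Genes of other roles made up the rest of the 12 highest. Tspo, an outer mitochondrial membrane protein, stood at 1044 CPM in old and 367 CPM in young members. Upp1, uridine phosphorylase, stood at 192 CPM in old and 42.4 CPM in young members, and had no UMI in young B cells. Prok2 stood at 148 CPM in old and 42.4 CPM in young members, 3.49-fold higher in old members (2.34 to 5.46). Cd38, an enzyme that consumes NAD, had a UMI in 51.4% of old members, at 55.0 CPM, and gave 2 UMIs in young members, a ratio of 15.6 with an interval of 4.30 to 129. Cd38 stood at 223 CPM in old and 212 CPM in young B cells, which express it. Fabp5, Asprv1, Apoe, Cstdc4 and Lipg made up the 12, at 3.29 to 6.62-fold. Apoe stood at 423 CPM in old B cells, above the level in old members of 58.4 CPM.

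Genes lower in old members included a pair that was nearly absent there. Sugct, a mitochondrial CoA transferase, stood at 6.94 CPM in old and 341 CPM in young members, 49.2-fold lower (39.0 to 62.1). It had a UMI in 7.36% of old and 95.7% of young members. In granule-low cells it stood at 3.85 CPM in the old and 859 CPM in the young library, so in the young library members were lower than granule-low cells. Dmd, which encodes dystrophin, gave 0.280 CPM in old and 101 CPM in young members, against 1.05 CPM in old and 55.8 CPM in young granule-low cells. Young B cells held 90.6 CPM of Sugct and 185 CPM of Dmd. The level of Dmd in young members was thus below that of young B cells.

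Other low genes were Fmnl2, Thbs1, Sntb1, Lhfpl2, Hgf, Fpr3 and Glcci1. Fmnl2, a formin of the actin cytoskeleton, stood at 62.1 CPM in old and 323 CPM in young members, and was higher in members than in granule-low cells in both libraries. Thbs1, thrombospondin 1, stood at 19.7 CPM in old and 185 CPM in young members, and 31.4% of the young UMIs came from 1 cell. Without that cell the young value was 133 CPM. Fmnl2 and Fpr3 had lower values in old than in young granule-low cells as well, whereas Thbs1 stood at 35.3 CPM in the old and 37.0 CPM in the young library there.

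Kcnq5, Gzma and Ccl5 also ranked among the 12 lowest, and rested on 1 young member. Kcnq5 is a potassium channel gene, Gzma a cytotoxic granule protease and Ccl5 a chemokine of T and NK cells. That cell of 22111 UMIs held 84 UMIs of B, T and NK cell markers. A single young cell held 100% of the Kcnq5, 94.0% of the Gzma and 95.2% of the Ccl5 UMIs. Without it, Ccl5 stood at 5.51 CPM and Gzma at 5.51 CPM in young members, and Kcnq5 gave none. In old members Ccl5 stood at 17.9 CPM, so its order turned without that cell.

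**Figure D5:**
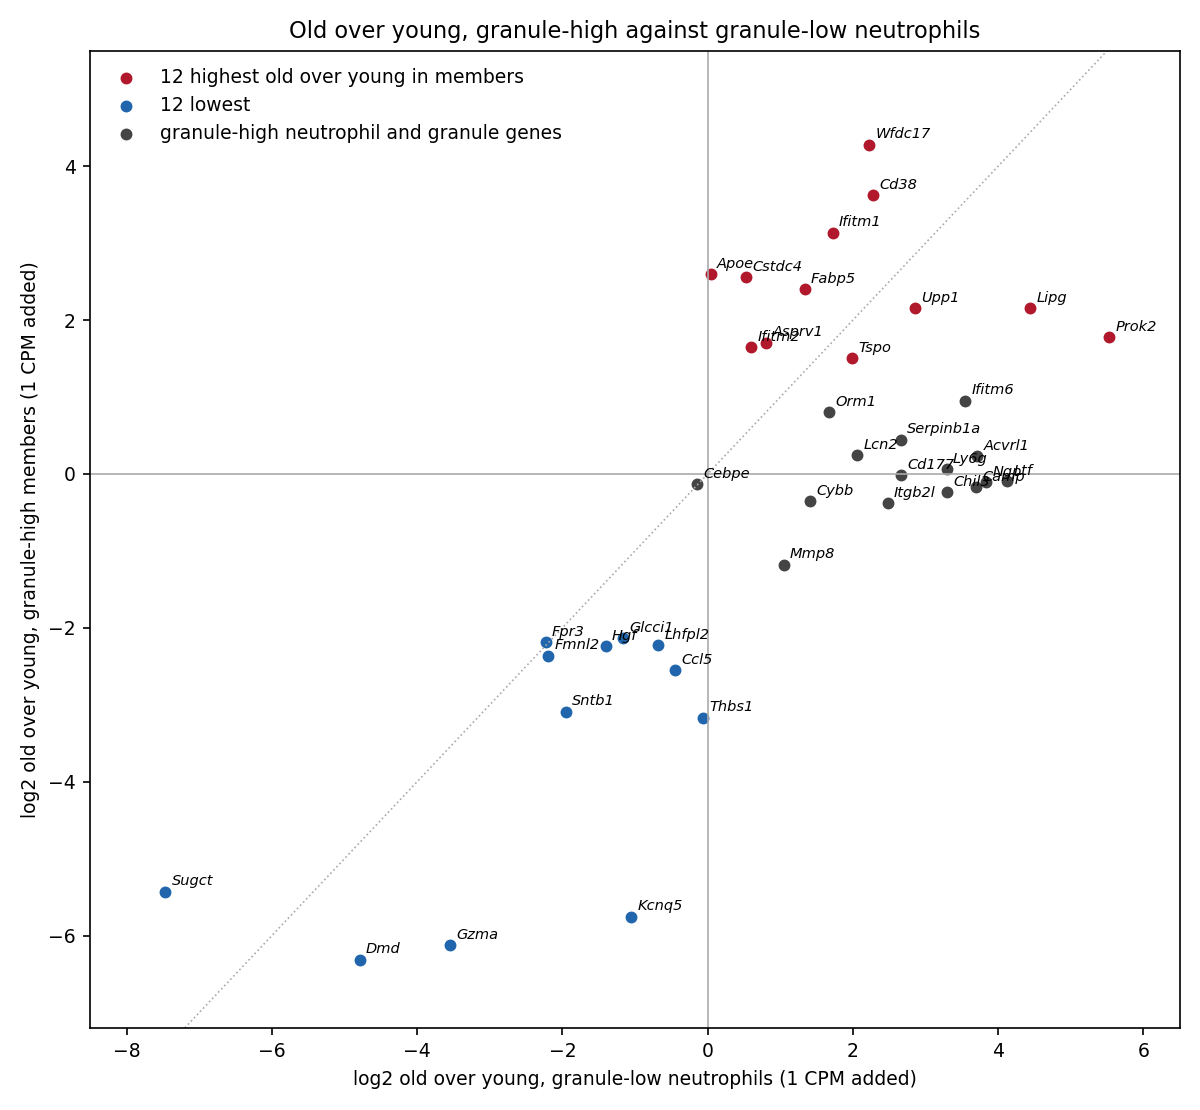
Log2 ratio of old over young CPM in granule-high members (vertical axis) and in granule-low neutrophils (horizontal axis), with 1 CPM added. Granule genes such as Chil3 and Cd177 lie near 0 on the vertical axis and right of 0 on the horizontal one. Wfdc17 and Ifitm1 are positive and Sugct and Dmd negative on both. Ltf, Camp and Ngp are also drawn, but the rule sorted the cells by them, so their places are only a description.

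Markers of other cell types were checked in all members. Of 6 erythroid markers the summed level was 4320 CPM in old and 901 CPM in young members, with a median per cell of 1175 CPM in old and 875 CPM in young members. The haemoglobin gene Hbb-bs stood at 2170 CPM in old and 498 CPM in young members, against 6270 CPM in old and 5073 CPM in young granule-low cells. The 8 classical monocyte markers summed to 1075 CPM in old and 1062 CPM in young members, nearly all from Ly6c2, at 1010.3 CPM in old and 1044 CPM in young members, which immature mouse neutrophils also express. Ccr2, F13a1, Vcan and Fn1, which the rule limits, gave no UMI in young members. Platelet markers summed to 110 CPM in old and 93.6 CPM in young members, and NK markers to 8.89 CPM in old and 166 CPM in young members. Of 47 young members 37 had no NK marker UMI, and only 1 held 10 or more. The highest NK level in a young member was 3799 CPM. No doublet caller was run. At 0.5% or more of UMIs from B, T, NK, platelet or erythroid markers there were 27 old and 0 young members, and leaving them out changed no count of genes by more than 1.5 times. The monocyte gate had left out 22 old and 0 young cells past the granule limit.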

How the data were processed

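The authors deposited raw UMI counts, with 32285 genes listed for each barcode. The authors' files name Cell Ranger 7.2.0, per the file headers, and build mm10, per the submitters' processing notes. The annotation release and the way cells were called are not given in the sources used here. The members, gene lists and tests were chosen with earlier results of these data known.

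Cells were gated as the report states. Ratios are of summed CPM, folds without and log2 ratios with 1 CPM added, with exact Poisson 95% intervals for levels and exact conditional intervals for ratios. Genes at 50 CPM or more in either group were counted past 1.5-fold (ages) or 2-fold (members over granule-low cells), and list members at 10 CPM or more. These limits are not a test. A ratio to a group at 0 UMIs used a floor of 3 UMIs in that group.

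Named genes were the 12 highest and 12 lowest of each comparison, by the interval bound nearest 1 for ages and by the smaller ratio of both libraries for members over granule-low cells. Left out were rule genes, unnamed models, genes of mitochondria, ribosomal proteins and haemoglobin, and antigen receptor genes. Up to 4 genes per list by ratio, and each granule, transcription factor and old-high or old-low list gene, could also be named. Hbb and Hba genes, Cd34, Sox4, Gata2, Ccrl2, Ptgs2, Hp, F13a1, Vcan, Fn1, Cdkn1a and Ms4a3 were named outside this rule, after their values were seen. Eif2s3y, Uty and Kdm5d were named likewise. B cells had at least 10 UMIs of B cell markers and no UMI of Csf3r, Cxcr2 or Ly6g. Of the list genes, 2 were not matched in the files.

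Alternatives were other cell filters, granule limits of 2% and 5%, a monocyte limit by share, thinning to 1000 UMIs, members with other markers left out, other totals, centring on the median gene, equal weight per cell, a pseudocount of 5 CPM, floors of 20 and 100 CPM and another granule-low limit. Analyses used matplotlib 3.10.9, pandas 2.3.3, scipy 1.17.1 and numpy 2.4.6 under Python 3.11.15. For old over young members, ratios were run on simulated Poisson counts of 1874 genes. Of genes changed 2-fold 97.0%, and of those changed 4-fold 100%, lay past 1.5-fold on the right side. Intervals held the true ratio for 96.0% of genes. Both libraries were drawn from the summed profile of old members, without variation between cells. The simulation thus covers counting error alone, and not genes whose UMIs come from few cells. Levels of 3' UMI counts were not compared between genes.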

Additional observations from a re-analysis of the deposited data

Results flagged for a closer look

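Prok2 lay on opposite sides in the 2 libraries. In old members its log2 ratio to granule-low cells was -1.56, with 148 CPM in members and 439 CPM in granule-low cells. In young members the ratio was 2.19, with 42.4 CPM in members and 8.53 CPM in granule-low cells. Prok2 peaked at 0.1 to 1% granule share in both libraries, and the libraries differ in how many granule-low cells lie in that band, 3061 old and 120 young. The difference between the libraries was not tested.

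Ccl5 gave log2 ratios of members to granule-low cells of -1.08 in the old and 1.02 in the young library. The young value rests on 1 cell that held 95.2% of the 62 Ccl5 UMIs of young members. The difference between the libraries was not tested.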

How the results depend on the processing

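The member share of old neutrophils was 12.2% at a granule limit of 2%, 5.78% at 5% and 8.27% after thinning to 1000 UMIs, and the young share was 0.307% at 5%. Genes higher in old than young members numbered 361 and lower 263 relative to the median gene. With a total without the S100 and granule genes 297 were higher, and after thinning 352. At floors of 20 and 100 CPM, 301 and 88 were higher and 1417 and 419 lower. Genes higher in old members than in old granule-low cells numbered 302 relative to the median gene, 378 with that total, and 250 and 81 at the 2 floors, and genes lower numbered 278 and 367 under the first 2 settings. In the young library, 545 were higher relative to the median gene, 691 with that total, 468 after thinning, and 536 and 192 at the floors, and 529 and 671 were lower under the first 2. The floors change how many genes are counted; the cause of the other shifts was not tested.

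Directions turned for few named genes. Without members holding 10 lymphoid UMIs, an alternative chosen after seeing the data, the young ratio of members to granule-low cells was -3.07 log2 for Ccl5, -2.49 for Gzma and -3.12 for Kcnq5, and old over young was 0.93 for Ccl5 and 0.80 for Kcnq5. At a granule limit of 5%, the 5 values were -2.54, -3.27, -3.12, 0.78 and 0.71. At that limit Ggt1 in young members over granule-low cells was -1.74, and Prtn3 in old members over granule-low cells was -0.12 after thinning. Ratios of old over young averaged over bins of granule share were planned for bins with 20 members in each library, and no bin held 20 young members. No paired analysis was possible because each age has 1 library.

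One library per age limits every comparison of ages: age, animals and library cannot be told apart, and intervals cover counting error only. The 47 young members limit low genes, since 1 UMI there is worth more than 1 CPM.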

Other observations

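Survival and death genes and senescence and p53 genes were counted in the same way. Of 14 survival and death genes listed, none was higher past 2-fold in members than in granule-low cells, and 4 of 9 measured in the old and 8 of 12 in the young library were lower. Over all genes 24.1% were lower in the old and 35.8% in the young library. Set against the median gene, 3 were lower in the old library, and 6 were lower and 1 higher in the young one. Mcl1, a survival factor of neutrophils, stood at 534 CPM in old and 352 CPM in young members, against 1661 CPM in old and 1894 CPM in young granule-low cells. Of 11 senescence and p53 genes, 6 were measured, with none higher and 2 lower in members of each library. On that scale it was 1 lower in the old library, and 1 higher and 1 lower in the young one. Cdkn1a, the cell cycle inhibitor p21, stood at 0.951 CPM in old members and gave no UMI in young members, against 3.83 CPM in old and 1.65 CPM in young granule-low cells. Between ages, none of the 6 was higher past 1.5-fold in old members and 1 was lower, beside 33% of all genes lower, and relative to the median gene 1 was higher and none lower.

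For genes of protein entry and folding in the endoplasmic reticulum the counts depended on the scale. Of 18 measured, 3 were higher and none lower in old members than in old granule-low cells, and 1 was higher and 2 lower in the young library. Relative to the median gene, 8 were higher in the old and 7 in the young library. Of all genes, 5.74% were higher in the old and 9.46% in the young library, and 12.3% and 17.5% relative to the median gene. Hspa5, the main chaperone there, stood at 55.3 CPM in old and 49.5 CPM in young members, against 76.2 CPM in old and 141 CPM in young granule-low cells. Between ages, 5 of the 18 were higher past 1.5-fold in old members and 1 lower, beside 6.22% of all genes higher. Relative to the median gene 10 were higher and none lower, beside 15.3% of all genes higher.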
